A study of Mus musculus with 16 samples.

Results

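Transcripts of 10 genes of the interleukin-1 (IL-1), inflammasome and tumor necrosis factor (TNF) response were followed in brain microglia of mice with and without CARD9, an adaptor protein of innate immune receptors, and with and without amyloid-driving transgenes. The genes are *Il1a*, *Il1b*, *Il1rn*, *Il18*, *Nlrp3*, *Pycard*, *Casp1*, *Casp4*, *Gsdmd* and *Tnf*, taken by symbol, and they make up 10 of the 55385 genes counted. All 10 passed the filter on low counts that left 14513 genes. RNA was sequenced from CD11b+ cells, isolated on magnetic columns out of whole brains of female mice aged 20 wk, in 16 libraries, 4 for each of 4 genotypes. WT mice carried neither alteration, *Card9*-/- mice lacked *Card9* in all cells from the germline, 5xFAD mice carried human transgenes with mutations of familial Alzheimer's disease, and *Card9*-/-5xFAD mice carried both. Per the study's methods, the brains were perfused, freed of meninges and choroid plexus and digested with papain at 37 °C before the sort. All 4 genotypes share this handling. The comparisons ask how the transgenes change these genes with and without *Card9*, and how the loss of *Card9* changes them with and without the transgenes.

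The IL-1 family ligands are potent inflammatory cytokines. IL-1α and IL-1β act on the same receptor, and the product of *Il1rn*, the IL-1 receptor antagonist, occupies that receptor without activating it. IL-1β and IL-18 are made as inactive precursors. An inflammasome, in which the sensor NLRP3 and the adaptor ASC (*Pycard*) recruit caspase-1, activates the protease that cuts both precursors. Caspase-1 and caspase-11 (*Casp4*) also cut gasdermin D, whose fragment forms pores through which the cytokines leave the cell. TNF is a separate cytokine with receptors of its own. Microglia express these genes, and several of them are known to rise quickly when tissue is cut and digested.

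Between 2970148 and 19333325 reads per library were counted on genes, and the 10 genes together took 0.0777% to 0.154% of them. A transcript level is given as CPM, the reads on a gene relative to the size of its library (TMM sizes). Summed CPM of 10 microglial markers lay between 16395 and 36182 in every library. Summed CPM of 10 neutrophil markers ran from 738 to 6530, and that of 10 monocyte markers from 80.1 to 438. That of 8 choroid plexus or ependymal markers ran from 3.16 to 3007, so transcripts of these cells remained in some libraries. No library was a copy of another. *Card9* itself had 27 to 842 counts in the libraries labelled as lacking it, so a direction of a *Card9* effect rests on the labels. In sorted bulk RNA, fewer cells of a type and less RNA per cell cannot be told apart.

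Per kilobase of exon, *Il1b* stood highest of the 10 genes, with a mean over the 16 libraries of 123 CPM per kb. *Il18* followed at 82.0 CPM per kb, *Il1a* at 79.6, *Pycard* at 73.2, *Casp1* at 64.0 and *Gsdmd* at 48.1 CPM per kb. *Tnf* stood at 26.0, *Nlrp3* at 11.7, *Casp4* at 7.90 and *Il1rn* at 1.28 CPM per kb. The ligands, the adaptor, caspase-1 and gasdermin D were all at higher transcript levels than the sensor, and the antagonist was by far the scarcest. When the length of the principal transcript replaced the union of all exons, *Casp4* stood above *Nlrp3* and the other places were the same. Each gene varied from 3.18-fold to 7.81-fold between its lowest and its highest library, more than neighbours in this order differed in their means, except for *Casp4* and *Il1rn*, whose libraries did not overlap per kilobase. Most of that variation lay between libraries of the same genotype: 63.8% to 98.2% of the variance of log2 CPM for the genes other than *Il1rn*, against 33.9% for *Il1rn*. The plot of levels by library shows this spread.

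**Figure D1:**
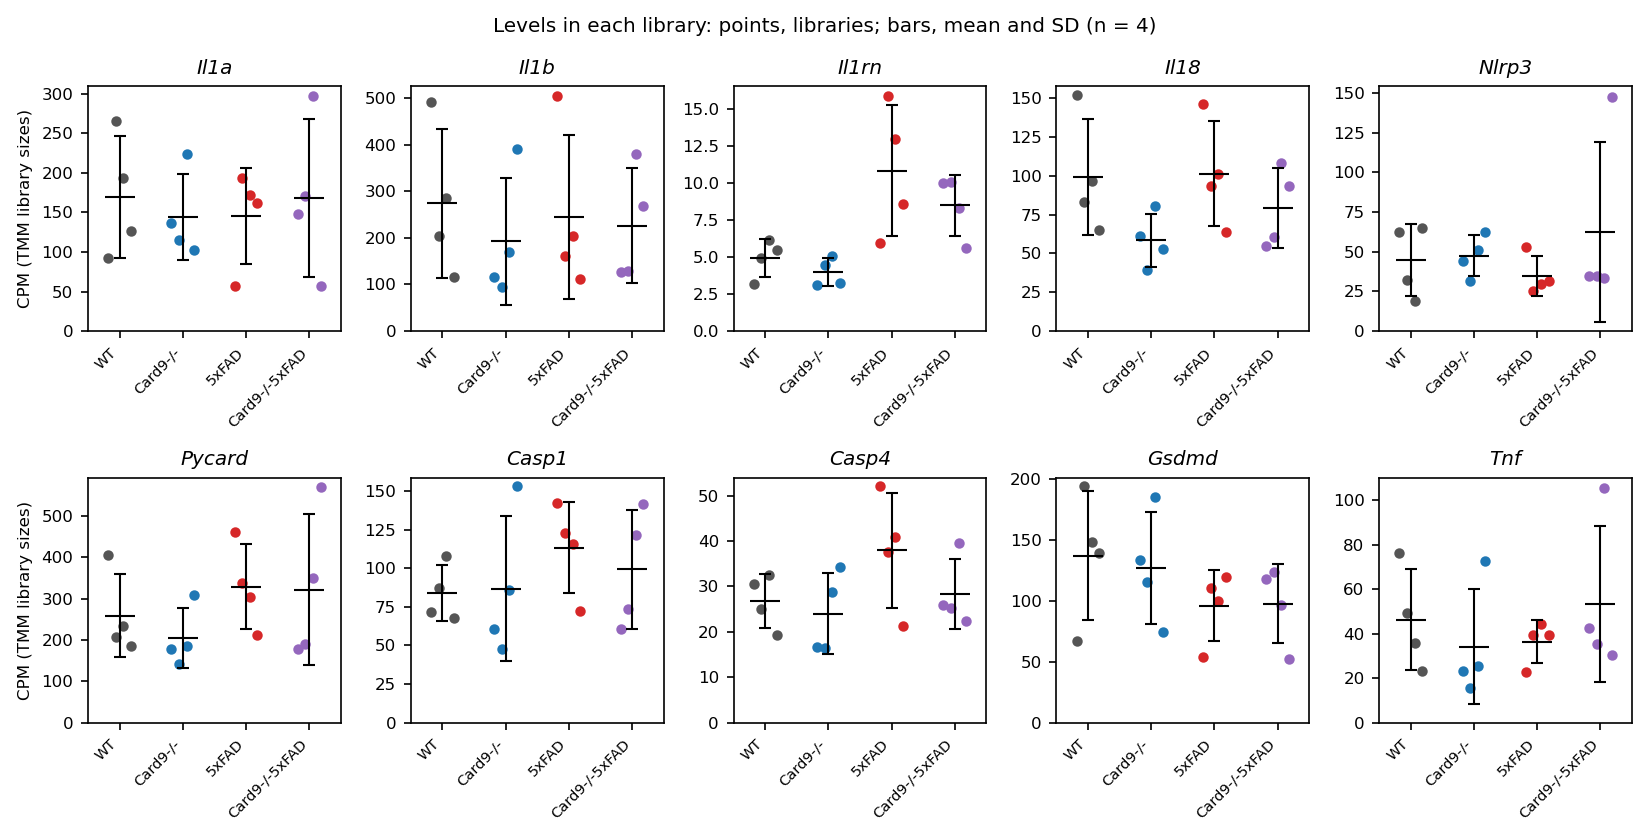
CPM of each of the 10 genes on linear axes that start at 0; each point is a library, and the horizontal mark with its bar gives the mean and SD of the 4 libraries of a genotype. The *Il1rn* points of 5xFAD and *Card9*-/-5xFAD lie at 5.61 to 15.9 CPM, against 3.12 to 6.18 CPM without the transgenes, so these ranges overlap. *Card9*-/-5xFAD and *Card9*-/- do not overlap for *Il1rn*, as for 7.01% of all genes, while they overlap for the other 9 genes.

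*Il1rn*, the receptor antagonist, was the single member whose transcript rose with the 5xFAD transgenes in the fit of all libraries without a replicate block. In WT it measured 3.17, 4.96, 6.18 and 5.46 CPM in replicates 1 to 4, and in 5xFAD 5.91, 15.9, 12.95 and 8.58 CPM. Without *Card9* it measured 3.12, 4.47, 5.10 and 3.27 CPM, and with *Card9* missing and the transgenes present 9.97, 10.04, 8.34 and 5.61 CPM. The lowest 5xFAD library lay just under the highest WT library, and *Card9*-/-5xFAD did not overlap *Card9*-/-. Averaged over both *Card9* genotypes, *Il1rn* was 2.15-fold higher with the transgenes (log2 fold change 1.10, SE 0.25, 95% interval 0.56 to 1.65, FDR = 0.0142, edgeR). In this comparison 11.3% of all genes tested passed the FDR threshold of 0.1, 5.62% upward and 5.73% downward, and 1 of the 10 genes did, a share close to that of all genes. Its call held in all 16 fits that dropped a library, in which the value ran from 0.98 to 1.31, and with 9 of 10 alternative settings. The exception was the replicate block described next together with the length covariate described further below, with a log2 fold change of 1.22 (SE 0.37, FDR = 0.109).

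The labels number the libraries of each genotype 1 to 4 without saying what a number marks. Within each *Card9* genotype, libraries of the same number with and without the transgenes deviated together from their genotype means over all genes. The correlation was 0.27 to 0.71 between WT and 5xFAD and 0.13 to 0.73 between *Card9*-/- and *Card9*-/-5xFAD, while differently numbered libraries reached 0.43 and 0.63. Across *Card9* genotypes the numbers did not pair the libraries. A fit with the number as a block within each *Card9* genotype, added after the data were seen, called 41.9% of all genes for the transgenes averaged, 18.1% upward and 23.8% downward. It called 5 of the 10 members, a share close to that of all genes. *Il1rn*, higher with the transgenes in 8 of 8 same-numbered pairs, had a log2 fold change of 1.09 (SE 0.20, FDR = 0.00170). *Pycard*, the adaptor, was higher in 8 of 8 pairs (0.46, SE 0.14, FDR = 0.0238), and *Casp4* (0.39, SE 0.16, FDR = 0.0733) and *Casp1* (0.34, SE 0.14, FDR = 0.0849) in 7 of 8. *Gsdmd* was lower in 7 of 8 pairs (-0.43, SE 0.14, FDR = 0.0322). When each of the 8 pairs was left out in turn, *Il1rn* and *Pycard* were called in 8 of 8 fits, *Gsdmd* in 7, *Casp1* in 3 and *Casp4* in 2. Those fits called 29.8% to 45.1% of all genes. How many of all genes ran the same way in as many pairs was not counted. With the block and the length covariate together none of the 10 passed, with *Pycard* at 0.24 (FDR = 0.600) and *Gsdmd* at -0.18 (FDR = 0.710), and the number of genes called in all was 760 in place of 6078.

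Within each *Card9* genotype, on fewer libraries that the average shares, the difference had the same size and did not pass with edgeR without the block. *Il1rn* differed by a log2 fold change of 1.13 between 5xFAD and WT (SE 0.35, FDR = 0.181) and of 1.08 between *Card9*-/-5xFAD and *Card9*-/- (SE 0.35, FDR = 0.183). Of all genes, 2.09% passed in the first and 1.97% in the second, and 0 of the 10 genes passed in either, with *Il1rn* the single one at an unadjusted p under 0.05, where 10.8% and 12.2% of all genes were. With the block within each *Card9* genotype *Il1rn* passed in both (FDR = 0.0319 and FDR = 0.0240), and *Pycard* in the second (0.55, SE 0.20, FDR = 0.0814), where 16% and 20.4% of all genes did. DESeq2 on all libraries called *Il1rn* in both, with FDR = 0.0544 and FDR = 0.0679, where it called 3.24% and 4.82% of the genes it tested. For 7.01% of all genes *Card9*-/-5xFAD and *Card9*-/- did not overlap. The interaction, which asks whether the transgene effect depends on *Card9*, was -0.04 for *Il1rn* (SE 0.50, 95% interval -1.13 to 1.05), an interval that holds a difference of 2-fold either way. *Il1rn* is also the least counted of the 10 genes, with 10 to 116 reads per library.

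Markers of border-associated macrophages moved in the same comparison. Their 10 listed genes, all counted and none at 0 throughout a genotype, summed to 1528 to 2040 CPM in WT and 916 to 1051 CPM in 5xFAD, and to 1649 to 2273 CPM in *Card9*-/- and 686 to 2062 CPM in *Card9*-/-5xFAD. Their sum was thus lower where *Il1rn* was higher in the first pair. In the second pair the overlap rested on *Card9*-/-5xFAD replicate 4, at 2062 CPM, and the other 3 libraries of that genotype lay at 686 to 1111 CPM, below every *Card9*-/- library. Their part in the *Il1rn* result was not tested.

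*Il1rn* lies on the plus strand of chromosome 2, from 24336853 to 24351494 (GRCm38). *Card9* lies near it on the same chromosome, at 26352176 to 26360918 on the minus strand. The part of sequence linked to the *Card9* allele in the *Il1rn* values by *Card9* genotype was not tested. It has 6 annotated transcripts in GENCODE M21, and RefSeq (GRCm38.p6) gives it 3 start sites. A count per gene does not tell which start the reads came from. The 250 bases before the most upstream start and before the next start are shown because this was the gene that rose, and the same stretch of *Il1b*, its agonist, is shown for comparison. The letters TGANTCA (the AP-1 consensus), TATAAA and the NF-κB (kappa-B) consensus were searched on both strands, without overlap in these 3 windows, and matches are in capitals.

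*Il1rn* upstream start, chr2:24336610-24336859, plus strand: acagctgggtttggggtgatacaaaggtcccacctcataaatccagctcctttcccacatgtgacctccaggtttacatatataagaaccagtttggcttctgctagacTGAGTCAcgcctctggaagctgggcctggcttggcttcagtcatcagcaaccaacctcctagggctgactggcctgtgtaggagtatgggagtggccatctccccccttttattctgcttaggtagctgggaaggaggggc
*Il1rn* next start, chr2:24345041-24345290, plus strand: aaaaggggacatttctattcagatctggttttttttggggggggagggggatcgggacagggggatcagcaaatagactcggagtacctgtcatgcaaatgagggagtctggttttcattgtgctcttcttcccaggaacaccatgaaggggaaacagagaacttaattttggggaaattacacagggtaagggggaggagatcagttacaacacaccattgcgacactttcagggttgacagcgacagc
*Il1b*, chr2:129371140-129371389, minus strand: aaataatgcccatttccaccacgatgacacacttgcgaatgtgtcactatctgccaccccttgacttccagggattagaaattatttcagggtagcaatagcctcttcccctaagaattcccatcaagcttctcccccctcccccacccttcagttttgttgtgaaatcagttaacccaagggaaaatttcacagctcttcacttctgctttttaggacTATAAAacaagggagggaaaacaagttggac

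The upstream *Il1rn* window holds an AP-1 match from 141 to 135 bases before the start, the next window holds none of these letters, and *Il1b* holds TATAAA from 31 to 26 bases before its start. Among 32851 windows of the same length, 6.75% held the AP-1 letters, 12.4% TATAAA and 7.25% the NF-κB consensus. Of the 9 members in the promoter table, *Il1a* also held an AP-1 match, *Casp4* and *Nlrp3* an NF-κB match, and *Il1a*, *Il18* and *Tnf* TATAAA. A match is a run of letters and not evidence of binding.

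**Figure D2:**
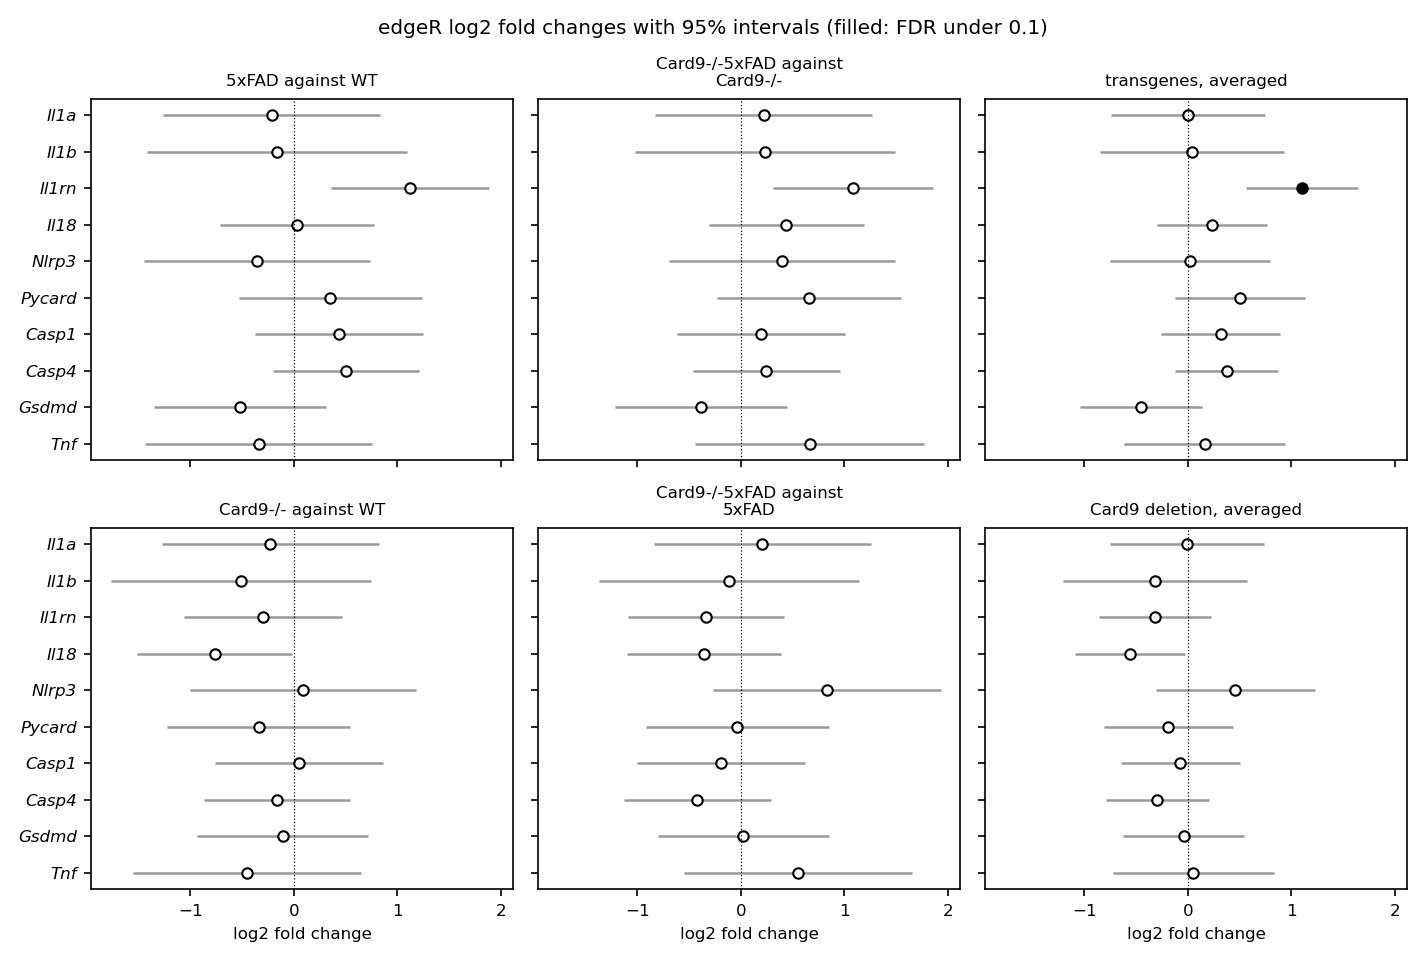
Log2 fold change of each gene (points) with its 95% interval (lines) in 6 comparisons, from edgeR; filled points passed the FDR threshold of 0.1. The *Il1rn* value of 1.10 for the transgenes averaged is the single filled point in this fit without a replicate block, and most other intervals span 0.

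The ligands *Il1a*, *Il1b* and *Il18* did not pass the threshold for the transgenes in the fit without covariates. *Il1b* measured 490.5, 204, 284 and 117 CPM in WT and 503, 162, 203 and 112 CPM in 5xFAD. It measured 115, 93.6, 170 and 391 CPM in *Card9*-/- and 126, 130, 381 and 269 CPM in *Card9*-/-5xFAD. Each genotype held a library with several times the *Il1b* of another, and the 4 genotypes overlapped almost completely. The log2 fold change for the transgenes averaged was 0.04 (SE 0.41, 95% interval -0.85 to 0.92, FDR = 0.969). For *Il1a* it was 0.00 (SE 0.34, 95% interval -0.74 to 0.74, FDR = 0.999), over libraries that ran from 56.5 to 298 CPM. *Il18* measured 152, 83.3, 96.5 and 64.9 CPM in WT, 146, 93.8, 101 and 64.1 CPM in 5xFAD, 61.5, 39.1, 80.4 and 52.7 CPM in *Card9*-/- and 54.6, 60.4, 108 and 93.7 CPM in *Card9*-/-5xFAD. Its averaged value for the transgenes was 0.23 (SE 0.24, FDR = 0.601). Reads on *Il1b* outnumbered those on *Il1rn* 10.2-fold to 85.1-fold in the libraries with the transgenes and 21.0-fold to 155-fold in those without. The ranges overlapped, and this ratio of counts is not corrected for transcript length.

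The *Il1b* value depended on a further property of the libraries. When the slope of each library's expression on transcript length (described below) entered the fit as a covariate, a choice made after the data were seen, *Il1b* was lower with the transgenes averaged (log2 fold change -0.59, FDR = 0.0420) and in 5xFAD against WT (-0.81, FDR = 0.0894). The same covariate raised the number of genes called in all from 1647 to 3558 and from 304 to 914. *Il1rn* was called in both with it (log2 fold change 1.26 and 1.28, FDR = 0.000472 and 0.0419).

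The sensor, the adaptor, the caspases and gasdermin D did not pass in any comparison without the replicate block. *Nlrp3* measured 62.3, 32.1, 18.9 and 64.8 CPM in WT, 44.1, 31.7, 51.2 and 62.5 CPM in *Card9*-/-, 53.2, 24.9, 29.7 and 31.5 CPM in 5xFAD and 34.5, 34.8, 33.5 and 147 CPM in *Card9*-/-5xFAD. The last value, in *Card9*-/-5xFAD replicate 4, stood alone above the other 15 libraries. *Pycard* measured 406, 207, 234 and 186 CPM in WT, 462, 338, 304 and 213 CPM in 5xFAD, 177, 143, 186 and 309 CPM in *Card9*-/- and 178, 189, 350 and 571 CPM in *Card9*-/-5xFAD. Its genotypes overlapped, although each library with the transgenes lay above its same-numbered counterpart. *Casp1* ran from 47.4 to 153 CPM and *Casp4* from 16.4 to 52.2 CPM over all libraries. For the transgenes averaged the log2 fold changes were 0.51 for *Pycard* (SE 0.29, FDR = 0.313), 0.32 for *Casp1* (SE 0.26, FDR = 0.505), 0.37 for *Casp4* (SE 0.23, FDR = 0.354) and 0.02 for *Nlrp3* (SE 0.35, FDR = 0.980). *Gsdmd*, at 137 ± 52.6 CPM in WT, 127 ± 45.9 in *Card9*-/-, 95.8 ± 29.2 in 5xFAD and 97.3 ± 32.4 in *Card9*-/-5xFAD (SD, n = 4), had the sole negative value, -0.45 (SE 0.27, FDR = 0.340). *Casp1* and *Casp4* lie next to each other on chromosome 9 without shared exon bases in the annotation. Whether reads could fit both genes was not examined.

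*Tnf* measured 76.2, 49.6, 35.9 and 23.2 CPM in WT, 23.4, 15.3, 25.3 and 72.6 CPM in *Card9*-/-, 22.7, 39.3, 44.6 and 39.2 CPM in 5xFAD and 42.5, 35.5, 105 and 30.4 CPM in *Card9*-/-5xFAD. A single library stood well above the other 3 in both *Card9*-deficient genotypes, replicate 4 in *Card9*-/- and replicate 3 in *Card9*-/-5xFAD. The log2 fold change for the transgenes averaged was 0.16 (SE 0.36, 95% interval -0.61 to 0.94, FDR = 0.820). Over the 10 genes the median log2 fold change in this comparison was 0.20, and 9 of 10 were above 0, beside a median of -0.15 and 38.3% above 0 among all genes tested. Of those 9, *Il1a*, *Nlrp3* and *Il1b* lay within 0.04 of 0, and the count was 7 with either replicate block, 7 with the early response covariate and 4 with the length covariate.

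None of the 10 genes passed the threshold for the loss of *Card9*, in either transgene state or averaged. With edgeR, 0 of 10 passed in *Card9*-/- against WT and 0 of 10 in *Card9*-/-5xFAD against 5xFAD, where 0% of all genes passed in both. Averaged over both transgene states 0 of 10 passed, with 0.0276% of all genes. DESeq2 on all libraries called 0 of the 10 in each of these as well, where it called 5, 2 and 106 of all genes. For the average it gave an FDR to 2623 genes alone, against 29625 in each single comparison. A gene without an FDR could not be called there. At an unadjusted p under 0.05, *Il18* was the single member in *Card9*-/- against WT and in the average, where 4.11% and 9.12% of all genes were, and no member was in *Card9*-/-5xFAD against 5xFAD, where 2.52% of all genes were. The *Il18* log2 fold change was -0.76 in *Card9*-/- against WT (SE 0.34, FDR = 0.970), -0.36 in *Card9*-/-5xFAD against 5xFAD (SE 0.34, FDR = 0.993) and -0.56 averaged (SE 0.24, 95% interval -1.09 to -0.03, FDR = 0.520). The *Card9*-/- libraries of *Il18* overlapped those of WT. *Il1b* had -0.31 (SE 0.41), *Il1rn* -0.32 (SE 0.25), *Casp4* -0.29 (SE 0.23), *Pycard* -0.19 (SE 0.29) and *Casp1* -0.07 (SE 0.26) for the *Card9* average. *Gsdmd* had -0.04 (SE 0.27), *Il1a* -0.01 (SE 0.34), *Tnf* 0.05 (SE 0.36) and *Nlrp3* 0.46 (SE 0.35), all with FDR of 0.668 or more.

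The largest difference between *Card9*-/-5xFAD and 5xFAD was that of *Nlrp3*, at a log2 fold change of 0.83 (SE 0.50, FDR = 0.993). It rested on 1 library: without *Card9*-/-5xFAD replicate 4 it was -0.019. That library was also the shallowest, with 2970148 counts, and it held 368 reads on *Nlrp3*. Its neutrophil markers summed to 6288 CPM, against 738 to 1440 CPM in the other 3 libraries of its genotype, and its microglial markers, at 19487 CPM, were the lowest of the 4. *Card9*-/- replicate 4, the library of that genotype with the most *Tnf*, had neutrophil markers at 6530 CPM, against 1613 to 1710 CPM in the others, while *Card9*-/-5xFAD replicate 3, with the most *Tnf* of all, had the lowest sum, 738 CPM. Choroid plexus or ependymal markers summed to 1205 CPM in *Card9*-/-5xFAD replicate 4, against 3.16 to 556 CPM in the others of its genotype. In *Card9*-/- replicate 4 they summed to 3007 CPM, against 91.2 to 294 CPM in the others. The part of these cell types in the *Nlrp3* and *Tnf* values was not tested. For *Tnf* the value was 0.55 (SE 0.50, FDR = 0.993), and it was -0.016 without *Card9*-/-5xFAD replicate 3. The interaction was largest for *Tnf*, at 1.00 (SE 0.71, 95% interval -0.55 to 2.56), and 0.44 without the same library. Without *Card9*-/- replicate 4 it was 1.66 (SE 0.62, FDR = 1.000). The *Tnf* value was then -1.11 in *Card9*-/- against WT (SE 0.46, FDR = 0.619) and 1.32 in *Card9*-/-5xFAD against *Card9*-/- (SE 0.47, FDR = 0.128), so none passed, though each was at an unadjusted p under 0.05. In the fit of all libraries none of the 10 passed for the interaction with edgeR or DESeq2, none was at an unadjusted p under 0.05, and 0% of all genes passed with edgeR (0.537% at that unadjusted p).

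The variation of these genes within genotypes was set against 2 properties of the libraries. The first is the early response score, the mean log2 CPM of 30 genes known to rise within minutes to hours, also during dissociation. It was 6.59 ± 0.22 in WT, 6.79 ± 0.43 in *Card9*-/-, 6.10 ± 0.51 in 5xFAD and 6.75 ± 0.34 in *Card9*-/-5xFAD (SD, n = 4), and none of 5 comparisons passed the threshold, 4 between genotypes that differ in *Card9* or the transgenes alone and 1 of libraries with against without the transgenes (exact two-sided permutation tests, lowest p = 0.0857, adjusted p = 0.286). With 4 libraries per genotype, a pair of genotypes could not pass alone after adjustment over 5 tests, even without overlap. These tests thus do not show that the score is the same. All 30 genes were higher in *Card9*-/-5xFAD than in 5xFAD, where 62% of all genes were, though none of the 30 passed. Their median log2 fold change was 0.56, beside 0.14 for all genes. For the *Card9* average 29 of 30 were higher, where 62.4% of all genes were. After removal of genotype means, none of the 10 genes correlated with the score past the threshold over 16 libraries. *Il18* came closest (r = -0.54, rho = -0.60, adjusted p = 0.556 and 0.311, permutation test), and *Tnf* had r = 0.44 and rho = 0.34 (adjusted p = 0.563 and 0.467, permutation test).

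The second property, chosen after the data were seen, is the length slope. It says how far a library's log2 expression, set against the mean of all libraries, rises per unit of log2 exon length, and it ran from -0.224 to 0.285, with genotype ranges that overlapped. After removal of genotype means, *Il1b* fell as the slope rose (r = -0.94, rho = -0.93, adjusted p = 0.0002 and 0.0003, permutation test). *Pycard* (r = -0.93, rho = -0.92), *Casp1* (r = -0.88, rho = -0.84), *Casp4* (r = -0.76, rho = -0.79) and *Il18* (r = -0.75, rho = -0.75) did so too, with adjusted p of at most 0.0114 for each (permutation test, 10 genes tested against each property). In all 4 genotypes the library with the lowest slope held the most *Il1b* and the library with the highest slope the least. *Gsdmd* ran the other way (r = 0.68, adjusted p = 0.0171, permutation test), though its rank correlation did not pass (rho = 0.59, adjusted p = 0.0581). *Tnf* (r = -0.60, rho = -0.52), *Nlrp3* (r = -0.42, rho = -0.25), *Il1rn* (r = 0.44, rho = 0.32) and *Il1a* (r = 0.29, rho = 0.13) did not pass (adjusted p from 0.0587 to 0.345 for r). Without *Card9*-/- replicate 2 and 5xFAD replicate 1, the libraries farthest from the median slope, r was -0.95 for *Il1b*, -0.92 for *Pycard*, -0.85 for *Casp1*, -0.72 for *Casp4*, -0.71 for *Il18* and 0.73 for *Gsdmd*.

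Such correlations were common in these libraries. Of the 14513 genes, 2.45% were correlated with the slope as strongly as *Il1b* in either direction, 4.12% as *Pycard*, 13.5% as *Casp1*, 34.9% as *Casp4*, 35.9% as *Il18* and 45.4% as *Gsdmd*. *Il1b* and *Pycard* thus stood near the extreme of all genes, and the other 4 did not. *Il1rn* was matched or exceeded by 70.3% of all genes, *Nlrp3* by 72.3%, *Il1a* by 82.3% and *Tnf* by 54.9%. *Il1b* and *Pycard* varied together (r = 0.86 over the 16 libraries, genotype means removed, a description), and *Gsdmd* varied against *Pycard* (r = -0.83). In each genotype the library with the most neutrophil and fewest microglial markers held the most *Pycard* and the least *Gsdmd*. These sums were 3865 and 16395 CPM in WT replicate 1 and 2345 and 20993 CPM in 5xFAD replicate 1. In replicate 4 they were 6530 and 18800 CPM in *Card9*-/- and 6288 and 19487 CPM in *Card9*-/-5xFAD. Each also held the most *Il1b* of its genotype, except that of *Card9*-/-5xFAD, where replicate 3 held more. The part of these cell types was not tested.

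**Figure D3:**
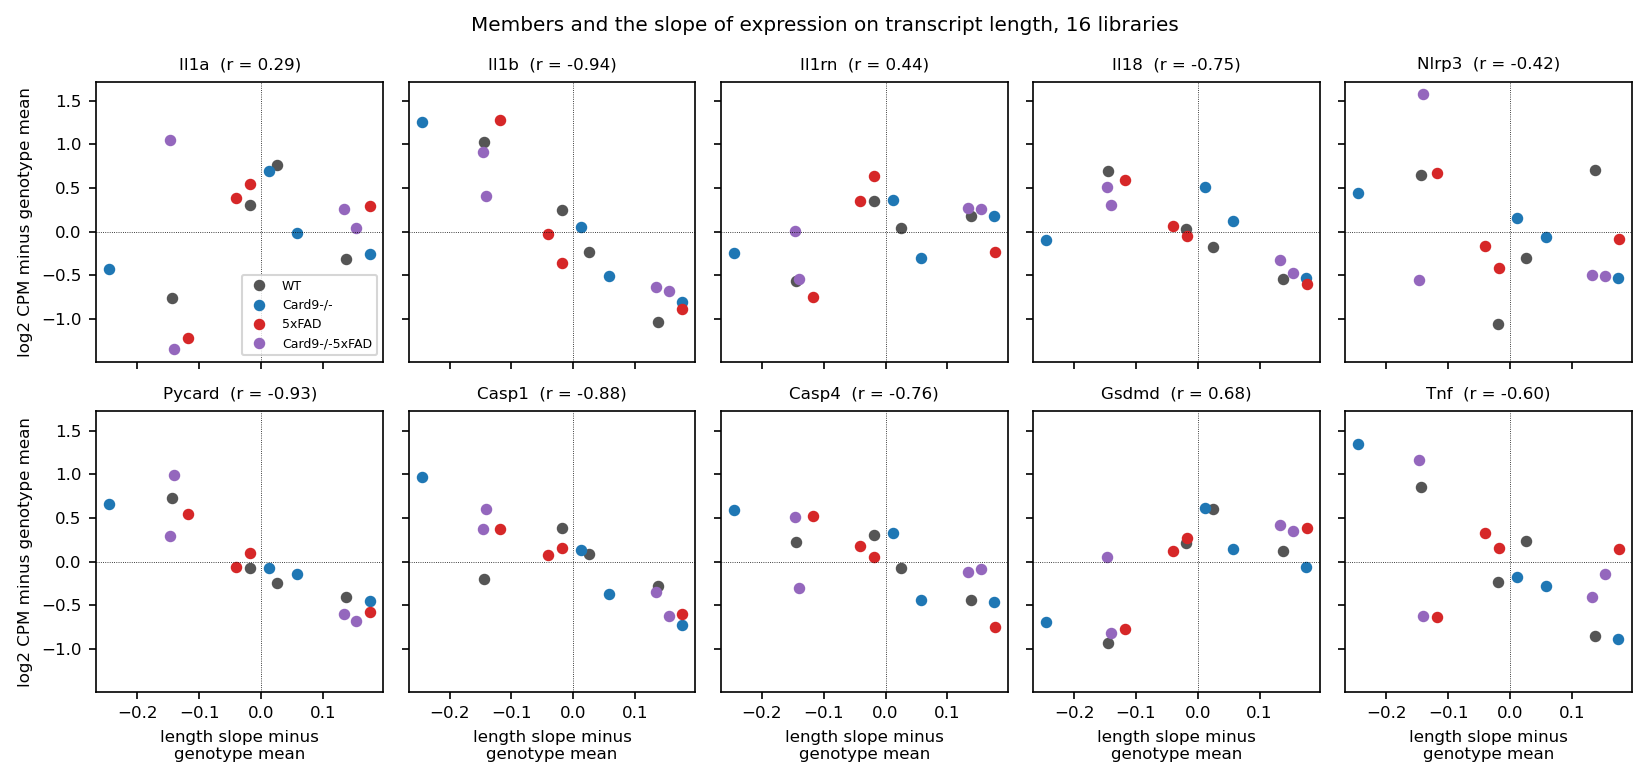
Deviation of log2 CPM from the genotype mean (vertical axis) against the deviation of the length slope from the genotype mean (horizontal axis, log2 expression per unit of log2 exon length) for each gene, with 1 point per library and Pearson's r in the title. *Il1b* (r = -0.94) and *Pycard* (r = -0.93) fall along a line, while *Il1rn* (r = 0.44) and *Nlrp3* (r = -0.42) scatter.

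The genes whose deviations were most like those of 4 members were listed as a description, over 16 libraries and 14512 other genes, which all share the libraries and their depth. For *Il1b* they included *Dtd2* (r = 0.96), *Srgn*, *Ranbp1* and *Aurkaip1*. For *Il1rn* they were *Ripk3* (r = 0.92), *Vdac1*, *Pdcd1*, *Aurkb* and *Smpdl3a*. For *Tnf* they were *Atf4* (r = 0.92), *Wfdc1*, *Gm20632*, *Gdf15* and *Gm43837*, and for *Nlrp3* *Wdr75* (r = 0.92), *Ehbp1*, *Wdr19*, *Helb* and *Tgfbr1*. None of the genes named here is on the early response list.

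Without the replicate block, other genes of the same pathways were called about as often as all genes, of which 5.62% rose and 5.73% fell with the transgenes averaged. In that comparison 1 of 21 tested genes of inflammasome sensing and pyroptosis rose, *Brcc3*, a deubiquitinase that acts on NLRP3 (log2 fold change 0.65, SE 0.23, FDR = 0.0987). Of the same 21 *Txnip*, a thioredoxin-binding protein that can bind NLRP3, fell (-0.71, SE 0.21, FDR = 0.0554). The sensors *Aim2* (-0.05, FDR = 0.906), *Nlrc4* (-0.75, FDR = 0.237) and *Nlrp1b* (-0.43, FDR = 0.705) and the ATP-gated channel *P2rx7* (-0.47, FDR = 0.113) did not pass. The median over the 21 was -0.26, beside -0.15 for all genes.

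Of 21 tested genes of the IL-1 family, *Il18bp*, which encodes the secreted protein that binds and neutralizes IL-18, rose. It was at 8.79 ± 2.78 CPM in WT, 6.79 ± 1.56 in *Card9*-/-, 21.5 ± 6.34 in 5xFAD and 14.6 ± 3.71 in *Card9*-/-5xFAD (SD, n = 4). The log2 fold change was 1.198 for the transgenes averaged (SE 0.22, FDR = 0.00320), 1.29 in 5xFAD against WT (SE 0.31, FDR = 0.0492) and 1.11 in *Card9*-/-5xFAD against *Card9*-/- (SE 0.31, FDR = 0.115). *Il18bp* shares 80 exon bases with *Numa1* on the other strand. *Il1f9*, an IL-36 ligand, fell (-1.07, SE 0.37, FDR = 0.0971). The signaling receptor *Il1r1* (1.14, SE 0.47, FDR = 0.162), the decoy receptor *Il1r2* (-0.52, SE 0.25, FDR = 0.225) and the accessory chain *Il1rap* (-0.11, FDR = 0.837) did not pass. The median over the 21 was -0.34.

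Of 23 tested genes of TNF signaling, 3 fell and 0 rose with the transgenes averaged, beside 5.73% and 5.62% of all genes. They were *Ltb*, a ligand of the TNF family (-1.12, SE 0.27, FDR = 0.0209), *Traf5*, a receptor adaptor (-0.79, SE 0.19, FDR = 0.0177), and *Birc3*, an inhibitor of apoptosis (-0.73, SE 0.17, FDR = 0.0153). The TNF receptors *Tnfrsf1a* (-0.20, FDR = 0.690) and *Tnfrsf1b* (-0.80, SE 0.33, FDR = 0.158) and the feedback inhibitor *Tnfaip3* (0.06, FDR = 0.920) did not pass. The median over the 23 was -0.33. In the 4 comparisons of single genotypes, *Il18bp* in 5xFAD against WT was the sole gene of the 3 lists to pass with edgeR without the block. With the block within each *Card9* genotype, 1 rose and 6 fell of the inflammasome list, 2 and 10 of the IL-1 family and 1 and 12 of TNF signaling for the transgenes averaged, where 18.1% of all genes rose and 23.8% fell. Those calls were 33.3%, 57.1% and 56.5% of the 3 lists, beside 41.9% of all genes, and most were downward. For the *Card9* average and the interaction none passed, with 2 of 21, 3 of 21 and 3 of 23 genes at an unadjusted p under 0.05 in the *Card9* average, where 9.12% of all genes were, and none in the interaction.

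**Figure D4:**
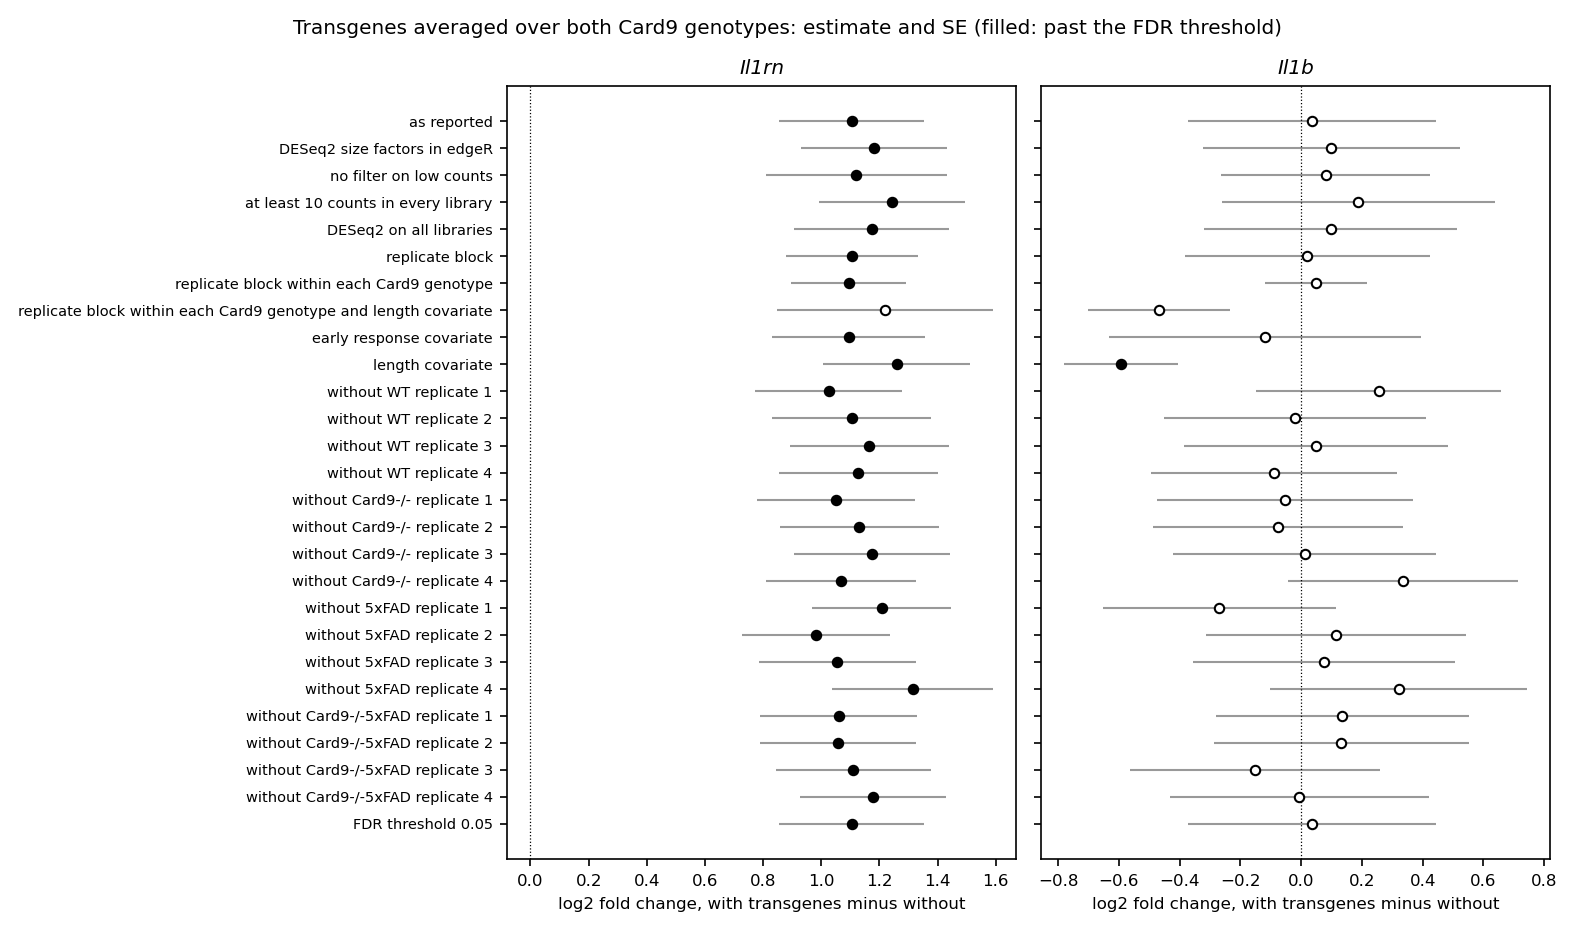
Log2 fold change for the transgenes averaged over both *Card9* genotypes (horizontal axis) with its SE (lines) under each processing alternative and with each library left out, for *Il1rn* and *Il1b*; filled points passed the FDR threshold of that setting. *Il1rn* stays between 0.98 and 1.31 and is filled except with the replicate block and length covariate together, while *Il1b* runs from -0.59 to 0.34 and is filled with the length covariate alone.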

How the data were processed

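Per the labels and the study's methods, the authors aligned reads of 16 libraries to mm10 with HISAT2, filtered them with SAMtools and counted them on genes with HTSeq. The deposited values are counts per gene symbol, not normalized. The versions, annotation and strand setting of the counting are not given in the sources used here, so reads of a gene and of an overlapping gene on the other strand cannot be told apart. This touches *Il1a* (222 exon bases shared with *Gm14023*), *Il1b* (25 with *Il1bos*) and *Pycard* (485 with *Gm45205*).

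Counts of all genes were fitted in R 4.3.3 with edgeR 4.0.16 (quasi-likelihood test, TMM, filterByExpr with minimum count 10), with 16 libraries in 4 groups and no covariate. Benjamini-Hochberg adjustment ran over 14513 genes, and the study's own cutoff of 0.1 on the FDR was used. The SE is the log2 fold change divided by the root of its F statistic. Log2 CPM add a prior count of 2. DESeq2 1.42.0 was an alternative. Exon lengths came from GENCODE M21 (GRCm38) and were found for 13558 of the tested genes (93.4%) and all 10 members. Permutation tests used 100000 resamples within genotypes for correlations. The test was run on simulated counts first. The labels number the libraries within a genotype and do not say that each is a separate animal, so p-values measure the spread between these libraries. Counting depth limits single genes most at *Il1rn*. The members, the gene lists and the named genes (all members, list genes past the threshold, 11 set receptors and sensors, and the 5 nearest genes of 4 members, of which 1 is not reported here) were chosen with earlier results of these data known. The alternatives were other scaling, filters, tools and thresholds, single comparisons fitted alone, a replicate block over all libraries or within each *Card9* genotype (where every same-numbered pair correlated above 0.1), covariates for early response and transcript length, and leaving out each library.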

Additional observations from a re-analysis of the deposited data

Results flagged for a closer look

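Each gene's CPM in each genotype was screened for a library far from the other 3, by the gap to its neighbour over the range of the 4. Of 40 such sets 2 passed, about as many as chance gives at about 1 in 20. *Nlrp3* stood at 147 CPM in *Card9*-/-5xFAD replicate 4, against 33.5 to 34.8 CPM in the other 3 libraries. *Tnf* stood at 105 CPM in *Card9*-/-5xFAD replicate 3, against 30.4 to 42.5 CPM in the others.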

How the results depend on the processing

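*Il1rn* for the transgenes averaged kept its direction under 10 alternatives (log2 fold change 1.09 to 1.26) and its call under 9 of them and in all 16 fits that left out a library (0.98 to 1.31). The number of members past the threshold was otherwise as reported except with DESeq2 on all libraries, 1 in place of 0 in 5xFAD against WT and 1 in place of 0 in *Card9*-/-5xFAD against *Card9*-/-, and with the length covariate, 2 in place of 0, 1 in place of 0, and 2 in place of 1 for the transgenes averaged. The replicate block within each *Card9* genotype, added after the data were seen, gave 1 in 5xFAD against WT, 2 in *Card9*-/-5xFAD against *Card9*-/- and 5 for the transgenes averaged, and that block with the length covariate gave 0 for the transgenes averaged in place of 1. Same-numbered libraries deviated together within each *Card9* genotype, where 5 of 8 libraries in each pair of genotypes correlated best with their own number, but not across *Card9* genotypes (-0.71 to 0.61), so the replicate block over all 4 genotypes joins libraries that are not paired. It changed no call (*Il1rn* averaged 1.11, FDR = 0.0116). Depth limits *Il1rn* most, at 10 to 116 counts. The filter on at least 10 counts in every library moved the median of all genes for the transgenes averaged from -0.15 to 0.01. The following signs turned, all log2 fold changes and none past the threshold except *Il1b* averaged with the length covariate; the cause was not tested.

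With the length covariate, in 5xFAD against WT *Il18* was -0.27, *Pycard* -0.057 and *Casp1* -0.0040. In *Card9*-/-5xFAD against *Card9*-/- *Il1b* was -0.37 and *Casp1* -0.15. In *Card9*-/-5xFAD against 5xFAD *Il1b* was 0.45, *Pycard* 0.22, *Casp1* 0.074 and *Gsdmd* -0.22. In *Card9*-/- against WT *Il1b* was 0.0057, *Pycard* 0.035 and *Casp4* 0.049. For the transgenes averaged *Il1b* was -0.59, *Il18* -0.12, *Nlrp3* -0.33, *Casp1* -0.076 and *Tnf* -0.076. For *Card9* averaged *Il1b* was 0.23, *Pycard* 0.13 and *Casp1* 0.15. With the early response covariate, in 5xFAD against WT *Il18* was -0.34 and *Tnf* 0.13. In *Card9*-/-5xFAD against 5xFAD *Il1b* was 0.14, *Il18* 0.085, *Pycard* 0.24, *Gsdmd* -0.033 and *Tnf* -0.10. For the transgenes averaged *Il1b* was -0.12 and *Nlrp3* -0.19. For *Card9* averaged *Pycard* was 0.014, *Casp1* 0.076 and *Tnf* -0.45. With the block within each *Card9* genotype, *Il1rn* was 0.016 for the interaction, and *Il1a* -0.080 and *Nlrp3* -0.083 for the transgenes averaged. With that block and the length covariate, in 5xFAD against WT *Il18* was -0.046 and *Nlrp3* 0.054. Values of *Il1a* -0.26, *Il1b* -0.22, *Casp1* -0.0057 and *Tnf* -0.25 were found in *Card9*-/-5xFAD against *Card9*-/-. *Il1rn* was 0.035 for the interaction, and *Il1a* -0.41, *Il1b* -0.47 and *Tnf* -0.73 for the transgenes averaged. With the replicate block over all 4 genotypes, in *Card9*-/- against WT *Casp1* was -0.035. For the interaction *Il1rn* was 0.059. For the transgenes averaged *Il1a* was -0.029 and *Nlrp3* -0.029. For *Card9* averaged *Tnf* was -0.035. In *Card9*-/-5xFAD against 5xFAD *Gsdmd* was -0.028 with DESeq2 on all libraries, -0.032 with DESeq2 on the groups compared, -0.031 with DESeq2 size factors in edgeR, -0.083 under the filter on 10 counts per library, -0.0098 with edgeR on the groups compared and -0.0069 with no filter. In *Card9*-/- against WT *Casp1* was -0.0043 with DESeq2 on all libraries, -0.016 with DESeq2 on the groups compared, -0.058 under the filter on 10 counts per library and -0.030 with no filter. For *Card9* averaged *Tnf* was -0.020 under the filter on 10 counts per library and -0.010 with no filter. Without the 2 libraries farthest from the median early response score, r was -0.13 for *Il1rn* and -0.049 for *Gsdmd*.

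The sign also turned for some members when 1 library was left out. In 5xFAD against WT *Il1a* ran from -0.42 to 0.092, *Il1b* from -0.78 to 0.27, *Il18* from -0.19 to 0.35 and *Tnf* from -0.56 to 0.0086. In *Card9*-/-5xFAD against *Card9*-/- *Il1a* ran from -0.20 to 0.51, *Il1b* from -0.14 to 0.83, *Nlrp3* from -0.46 to 0.59 and *Casp1* from -0.014 to 0.61. In *Card9*-/-5xFAD against 5xFAD *Il1a* ran from -0.22 to 0.49, *Il1b* from -0.50 to 0.50, *Nlrp3* from -0.019 to 1.09, *Pycard* from -0.46 to 0.16, *Gsdmd* from -0.18 to 0.23 and *Tnf* from -0.016 to 0.74. In *Card9*-/- against WT *Il1a* ran from -0.53 to 0.076, *Nlrp3* from -0.17 to 0.33, *Casp1* from -0.37 to 0.24 and *Gsdmd* from -0.35 to 0.11. For the interaction *Il1b* ran from -0.035 to 1.02, *Il1rn* from -0.25 to 0.20, *Nlrp3* from -0.10 to 1.01, *Pycard* from -0.11 to 0.57, *Casp1* from -0.45 to 0.18 and *Gsdmd* from -0.086 to 0.37. For the transgenes averaged *Il1a* ran from -0.21 to 0.16, *Il1b* from -0.27 to 0.34, *Nlrp3* from -0.40 to 0.19 and *Tnf* from -0.11 to 0.49. For *Card9* averaged *Il1a* ran from -0.22 to 0.14, *Casp1* from -0.29 to 0.018, *Gsdmd* from -0.17 to 0.064 and *Tnf* from -0.28 to 0.22.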
